A study of Mus musculus with 4 samples.

Results

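The genes described are 10 enzymes of serine synthesis, folate-bound one-carbon metabolism and asparagine synthesis: Mthfd2, Mthfd1, Mthfd1l, Shmt1, Shmt2, Phgdh, Psat1, Psph, Aldh1l2 and Asns. They were chosen by name as the metabolic arm of the mitochondrial stress response, with earlier results of these arrays in view, and each was read from all of its probe sets that the platform annotation gives 1 gene symbol. All 10 were found, among 18193 genes represented on the arrays, and they had 24 such probe sets. Because Mthfd2 and Asns were already known to differ in heart, the genotype differences below are a description and carry no test.

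Total RNA of mouse heart and muscle had been hybridised to 4 oligonucleotide arrays. The d/d mice came from a cross of mice homozygous for a floxed MnSOD (Sod2) allele with MCK-Cre transgenic mice, so that the gene is deleted where Cre is expressed. The f/f mice carry the floxed alleles and are labelled as the control, and each genotype was measured in both tissues, giving 4 groups. Cre under the muscle creatine kinase (MCK) promoter acts in muscle fibres and heart muscle cells, and the other cells of these tissues keep the floxed gene. Each group holds 1 array, so no error between animals could be given. Ages, the muscle taken, any pooling of animals and whether the f/f mice carry Cre are not given in the sources used here.

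Serine is made from a glycolytic intermediate by Phgdh, Psat1 and Psph in turn. The Shmt enzymes move a carbon from serine to folate, Shmt2 in mitochondria and Shmt1 in the cytosol. Mitochondrial Mthfd2, Mthfd1l and Aldh1l2 oxidise or release that carbon, yielding formate, carbon dioxide and reduced cofactors, and cytosolic Mthfd1 uses it for purine, thymidylate and methionine synthesis. Asns makes asparagine from aspartate and glutamine. Several of these genes are known targets of the transcription factor ATF4, which is made when translation is slowed by stress, and adult muscle and heart normally hold little Mthfd2.

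The arrays were read as intensity after scaling to a common trimmed mean, with a floor of 7.51 below which signals have no order. Between 58.0% and 61.1% of the probe sets lay above the floor on each array, and 19 of the 24 probe sets of the 10 enzymes did so on all 4. Each gene is given by the brightest of its probe sets (mean of log2 over the arrays), and it was counted as higher or lower at a difference of 2-fold or more with the brighter array above the floor. How far probe sets of 1 gene disagree was taken as a measure of technical spread. Its SD on the log2 scale was 0.51 in heart and 0.57 in muscle for signals under 32, and 0.31 and 0.30 in the next brighter range. It measures disagreement between probe sets and not variation between animals. The 4 probe sets of Sod2 itself differed between d/d and f/f by -1.22 to -0.21 on the log2 scale in heart and by -0.44 to 0.06 in muscle. In heart the 2 brightest, at 2330 against 1927 and 2156 against 1859 in f/f and d/d, gave -0.27 and -0.21, and the dimmest, at 67.8 against 29.2, gave -1.22. Their place relative to the deleted part was not known. In both genotypes all 12 cardiac muscle markers were at least 2-fold higher in heart than in muscle and all 12 skeletal muscle markers at least 2-fold lower, although 10 of the cardiac markers were above the floor in each muscle.

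In d/d heart, 2 of the 10 enzymes, Mthfd2 and Asns, were at least 2-fold higher than in f/f heart and 0 were at least 2-fold lower. Over all 13836 genes measured in this comparison, 3.94% were higher by that much and 4.22% lower. The median log2 difference of the 10 was 0.35, beside -0.05 over all genes, and 7 of the 10 lay above 0, where 6275 of all 13836 genes did. In d/d muscle 1 enzyme, Psat1, was at least 2-fold higher than in f/f muscle and 0 were lower, where 2.64% of all genes were higher and 3.25% lower. The median of the 10 in muscle was 0.10, beside -0.003 over 14256 genes, and here too 7 of the 10 lay above 0, where 7078 of all genes did. Left unscaled, the muscle arrays gave 204 genes higher and 450 lower in place of 376 and 463.

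**Figure D1:**
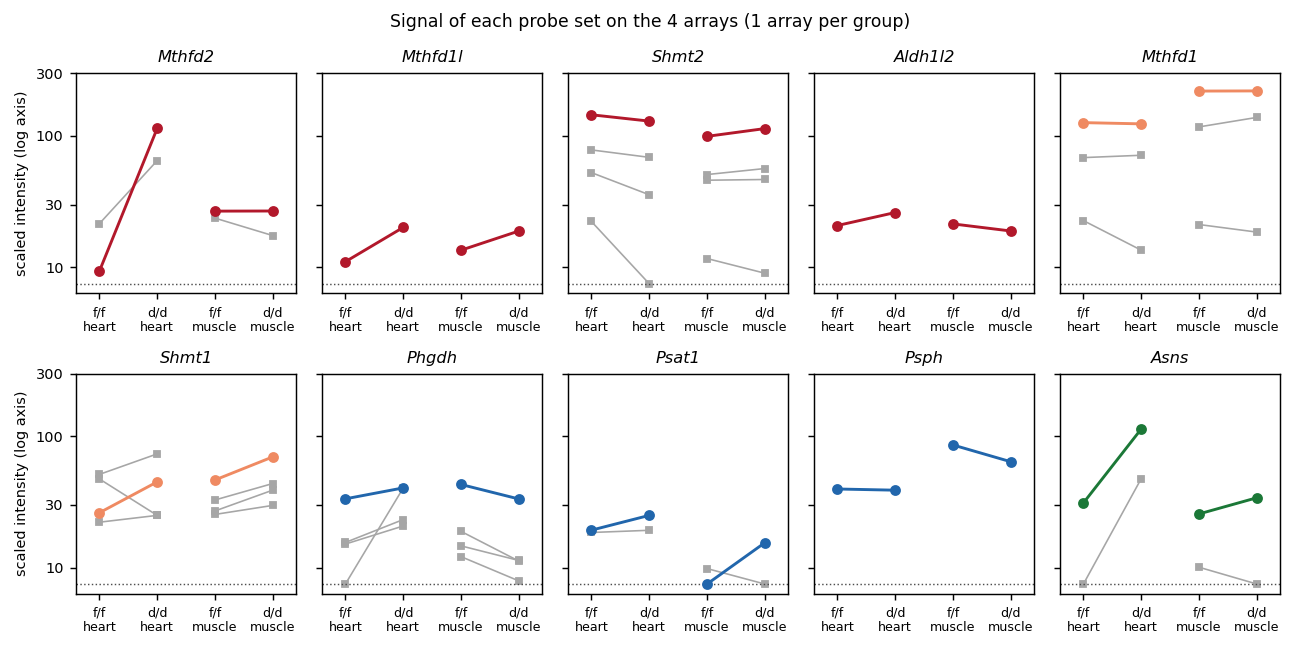
Scaled intensity (log axis) of every probe set of the 10 enzymes on the 4 arrays, 1 array per group. Coloured circles are the probe set that stands for the gene and grey squares its other probe sets, lines join the f/f and d/d arrays of a tissue, and the dotted line is the floor of 7.51, to which lower signals are drawn. Both Mthfd2 probe sets and both Asns probe sets stand higher in d/d heart than on the other 3 arrays.

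Mthfd2, the mitochondrial methylene-tetrahydrofolate dehydrogenase and cyclohydrolase, showed the largest difference among the enzymes. The probe set that stands for it read 9.35 in f/f heart, 114 in d/d heart, 26.8 in f/f muscle and 26.9 in d/d muscle. The d/d heart stood alone at the top, and f/f heart lay close to the floor. The d/d heart was 12.2-fold higher than f/f heart, a log2 difference of 3.61, and only 10 of the genes measured in heart had a larger one, placing Mthfd2 at rank 11 of 13836. The other probe set read 21.5, 65.0, 23.7 and 17.5 on the same arrays in the same order, so that d/d heart was again the highest, here by 3.02-fold over f/f heart. The size of the difference thus depended on the probe set, while its direction did not. On the log2 scale the 2 differences, 3.61 and 1.59, were larger than the general spread between probe sets in heart. That spread was 0.51 for signals under 32 and 0.31 in the next brighter range. The SD over the 2 Mthfd2 probe sets themselves was larger, at 1.43. Since Mthfd2 was already known to differ in heart, the comparison with the spread is no test of the difference.

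Asns, asparagine synthetase, read 31.1 in f/f heart, 114 in d/d heart, 25.7 in f/f muscle and 34.1 in d/d muscle. Again d/d heart was the highest array and the other 3 lay together. The difference in heart was 3.65-fold, 1.87 on the log2 scale, at rank 81 of 13836. A second probe set, whose name marks it as able to share sequence with other transcripts, was below the floor in f/f heart and read 47.6 in d/d heart, at least 6.34-fold higher. In muscle it read 10.1 in f/f and lay below the floor in d/d, whereas the first was 1.33-fold higher in d/d, so the muscle difference of Asns had no settled direction.

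ATF4 binds with C/EBP partners to a composite element whose core letters can be written TGATGNAA. The RefSeq promoters of Asns and Mthfd2 (build GRCm38.p6, both on the minus strand), the enzymes that were higher together in d/d heart, are shown from 250 bases before the gene's start to 50 after it, in the sense of the gene, with matches to these letters on either strand in capitals.
Asns, chr6:7693160-7693459: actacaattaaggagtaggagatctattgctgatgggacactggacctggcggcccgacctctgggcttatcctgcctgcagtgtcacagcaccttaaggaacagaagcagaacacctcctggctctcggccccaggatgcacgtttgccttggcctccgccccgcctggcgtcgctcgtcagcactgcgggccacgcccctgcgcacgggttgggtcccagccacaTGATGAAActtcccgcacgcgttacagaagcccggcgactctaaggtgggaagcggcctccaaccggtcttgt
Mthfd2, chr6:83317555-83317854: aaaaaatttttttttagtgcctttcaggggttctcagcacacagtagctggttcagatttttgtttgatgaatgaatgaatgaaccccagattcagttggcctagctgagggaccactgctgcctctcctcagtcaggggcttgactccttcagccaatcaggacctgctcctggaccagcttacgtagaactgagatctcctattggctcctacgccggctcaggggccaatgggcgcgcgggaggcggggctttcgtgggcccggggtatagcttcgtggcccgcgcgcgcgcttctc
The Asns promoter held 1 match, TGATGAAA, beginning 23 bases before the start, and the Mthfd2 window held 0. RefSeq promoters were found for 9 of the 10 enzymes, 10 windows in all, and the Asns window was the 1 with a match. Among 32851 mouse promoters of the same length, 3.97% held the letters on either strand. A match is a description of letters, and its use in these tissues was not measured.

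The other mitochondrial folate enzymes lay within 2-fold between genotypes on the probe sets that stand for them. Mthfd1l, the mitochondrial formate-releasing synthetase, read 11.1 in f/f heart, 20.2 in d/d heart, 13.5 in f/f muscle and 18.9 in d/d muscle on its only probe set. It was 1.82-fold higher in d/d heart and 1.40-fold higher in d/d muscle, both short of 2-fold, at signals near the floor. Its arrays had the same order as on the probe set that stands for Mthfd2, with d/d heart highest and f/f heart lowest. The 2 muscle arrays were almost level on that Mthfd2 probe set, 0.003 apart on the log2 scale and -0.09 without scaling. On the other Mthfd2 probe set d/d muscle was the lowest, at 17.5. With the floor raised to the 60th percentile the heart difference of Mthfd1l was 0.09 on the log2 scale in place of 0.87.

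Shmt2, the mitochondrial serine hydroxymethyltransferase that feeds Mthfd2, read 145 in f/f heart, 130 in d/d heart, 99.3 in f/f muscle and 114 in d/d muscle. All 4 of its probe sets were lower in d/d heart, by -0.16, -0.19, -0.56 and, as a bound, -1.57 on the log2 scale. The last is the dimmest, at least 2.98-fold lower with d/d heart below the floor. The first 2 differences were smaller than the spread between probe sets and the third, -0.56, was larger. Of the 4, 3 carry names that mark possible shared sequence, among them both larger differences, and the 1 that does not gave -0.19. In muscle the probe sets ran from -0.37 to 0.20. Aldh1l2, the mitochondrial formyl-tetrahydrofolate dehydrogenase, read 20.8, 26.2, 21.4 and 18.9 in f/f heart, d/d heart, f/f muscle and d/d muscle, and its arrays differed by no more than the spread between probe sets.

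**Figure D2:**
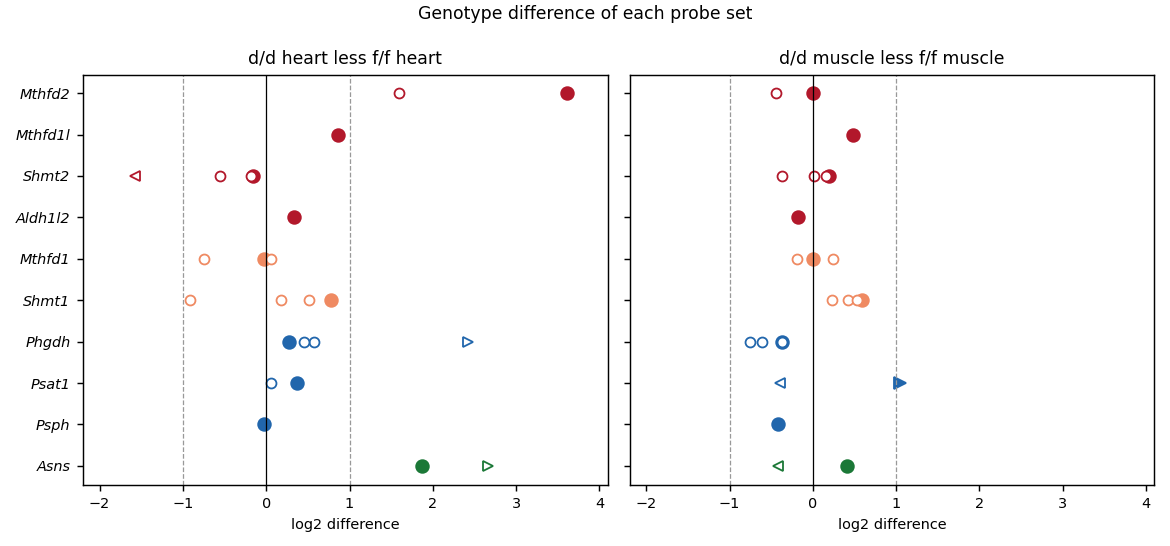
Log2 difference between d/d and f/f in heart (left) and muscle (right) for each of the 24 probe sets, 1 row per enzyme. Filled symbols stand for the gene, open symbols are its other probe sets, triangles are bounds where the lower array was below the floor and point to the larger difference, and dashed lines mark 2-fold. In heart the Mthfd2 and Asns symbols all lie beyond 2-fold higher, whereas the 4 Shmt2 symbols lie below 0.

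The 2 cytosolic folate enzymes stayed within 2-fold between genotypes on every probe set. Mthfd1, the trifunctional cytosolic folate enzyme, read 126 in f/f heart, 124 in d/d heart, 219.5 in f/f muscle and 220.1 in d/d muscle. Its genotype differences on that probe set, -0.03 in heart and 0.004 in muscle, were the smallest in each tissue apart from Psph in heart and Mthfd2 in muscle. A second probe set gave 0.06 and 0.24, and a dimmer one -0.75 and -0.19.

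Shmt1, the cytosolic serine hydroxymethyltransferase, read 26.2 in f/f heart, 45.0 in d/d heart, 46.5 in f/f muscle and 69.7 in d/d muscle. That was 1.72-fold higher in d/d heart, and higher by 0.58 on the log2 scale in d/d muscle. Its 4 probe sets agreed on the direction in muscle, from 0.23 to 0.58, and not in heart, where they ran from -0.92 to 0.78. The 1 probe set below 0 in heart is marked as able to share sequence, and the other 3 gave 0.17, 0.52 and 0.78. The difference in heart was above 0 under 7 of 8 settings and -0.07 with the median signal over the probe sets.

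Phgdh, the dehydrogenase that opens the serine pathway, was above f/f on all 4 probe sets in heart and below f/f on all 4 in muscle. The probe set that stands for it read 33.4 in f/f heart, 40.5 in d/d heart, 43.0 in f/f muscle and 33.3 in d/d muscle, log2 differences of 0.28 and -0.37. Of the others, 2 gave 0.58 and 0.46 in heart and another, below the floor in f/f heart and at 40.4 in d/d heart, was at least 5.38-fold higher. The muscle differences of these 3 were -0.75, -0.61 and -0.37. Every Phgdh probe set carries a name that marks possible shared sequence, and 2 more that the annotation assigns to Phgdh and another gene were left out, so the Phgdh signals are uncertain.

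Psat1, the aminotransferase of the second step, read 19.3 in f/f heart and 25.0 in d/d heart, a 1.30-fold difference. In muscle it was below the floor in f/f and read 15.5 in d/d, at least 2.06-fold higher, but its other probe set read 9.85 in f/f muscle and was below the floor in d/d, at least 1.31-fold lower. The probe sets opposed each other at signals near the floor, and the 1 enzyme counted as higher in muscle rests on them. Psph, the phosphatase of the last step, read 39.7 in f/f heart, 38.9 in d/d heart, 85.8 in f/f muscle and 64.0 in d/d muscle, 1.02-fold lower in heart and 1.34-fold lower in muscle.

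**Figure D3:**
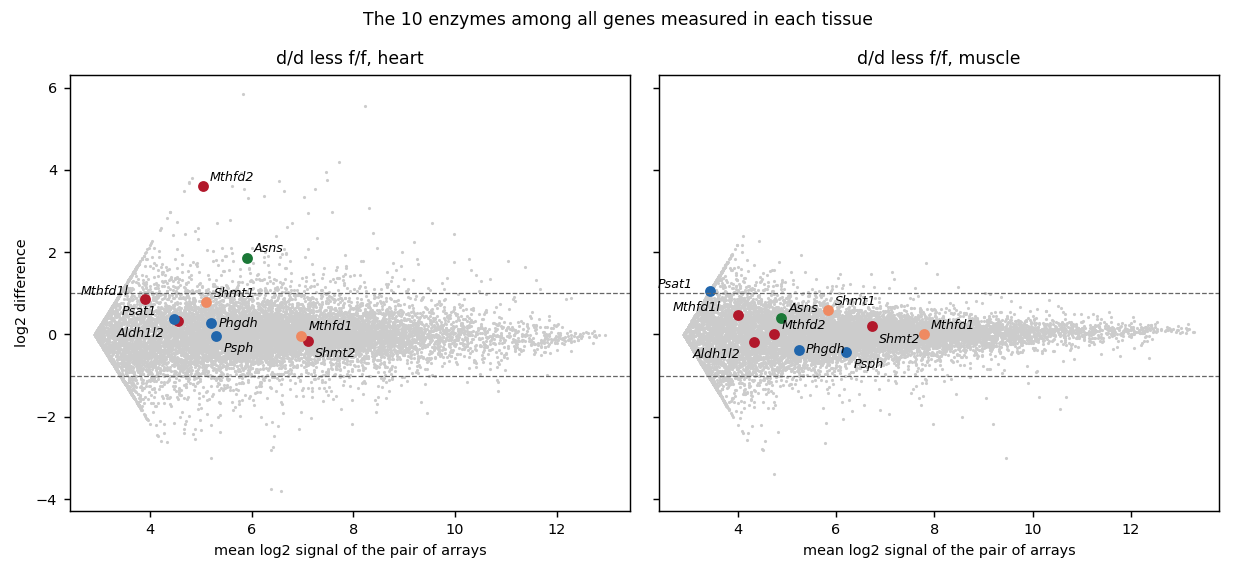
Log2 difference between d/d and f/f (vertical axis) against the mean log2 signal of the pair of arrays (horizontal axis) for all genes measured in heart (left, 13836) and muscle (right, 14256), grey, with the 10 enzymes coloured by role and dashed lines at 2-fold. In heart Mthfd2 and Asns lie beyond 2-fold at 3.61 and 1.87, ranks 11 and 81 of 13836, and the other 8 lie between the lines, and in muscle Psat1, at least 2.06-fold higher, is the 1 enzyme beyond the line.

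Grouped by role, the 4 mitochondrial folate enzymes had a median log2 difference of 0.60 in heart and 0.10 in muscle. The 3 serine synthesis enzymes had 0.28 in heart and -0.37 in muscle, with 2 of the 3 above 0 in heart and 2 of 3 below 0 in muscle. The 2 cytosolic folate enzymes had 0.37 and 0.29. In heart the 8 probe sets of the mitochondrial folate enzymes were split, with 4 above 0 and 4, all of Shmt2, below 0. Genotype differences of the 2 tissues came from separate pairs of arrays and were set against each other by subtraction. The heart difference exceeded the muscle difference by 3.61 on the log2 scale for Mthfd2, 1.46 for Asns and 0.64 for Phgdh, and was smaller for Shmt2, by -0.36. For Psat1 no such value is given, since its muscle difference is a bound and its probe sets oppose each other there. With 1 array per group these contrasts were not tested.

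Markers of other cells differed along with the enzymes in heart. Of 12 fibroblast markers 5 passed 2-fold upward in d/d heart and 0 downward, and their summed signal was 6784 in f/f heart and 12610 in d/d heart. Macrophage markers summed to 2489 and 3403, with 3 of 12 higher and 1 lower, endothelial markers to 1858 and 2347, and dividing cell markers to 889 and 895, with 3 of 14 measured at least 2-fold higher. In muscle these sums went the other way, from 7593 in f/f to 4917 in d/d for fibroblast markers, 1427 to 919.5 for macrophage markers and 623 to 486 for dividing cell markers, of which 4 of 15 were at the floor in f/f and 7 in d/d. Cardiac markers in muscle summed to 7257 in f/f and 4288 in d/d. Of the 10 measured there, 7 were at least 2-fold lower in d/d and 0 higher, where 3.25% of all genes were lower. Their median log2 difference was -1.73. Lymphocyte markers summed to 93.9 and 196 in f/f and d/d heart and to 95.5 and 61.3 in muscle. Of the 9 on the arrays, 5 lay at the floor in f/f heart and 4 in d/d heart. Ptprc, at 60.3 in f/f heart and 147 in d/d heart, made up most of the heart sums. Cd79a went the other way, from 17.8 to 8.04, so the list had no common direction in heart. Spike-in control probe sets had a median d/d to f/f ratio of 1.229 in heart and 0.9285 in muscle after scaling, and small ribosomal RNA ratios of 1.64 to 2.58 and 0.85 to 1.02. The part of any of these in the differences of the 10 enzymes was not tested, and in bulk tissue fewer cells of a type and less RNA per cell cannot be told apart.

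Between the tissues, f/f heart and f/f muscle differed by 2-fold or more in 3 of the enzymes. Psat1 was higher in heart, at least 2.57-fold, and Mthfd2 and Psph were lower in heart, 2.87-fold and 2.16-fold. Over all genes 12.1% were at least 2-fold higher in f/f heart and 8.3% lower. The Mthfd2 value comes from the probe set that was near the floor in f/f heart, and the other probe set differed by 1.10-fold. Mthfd1 was 1.74-fold and 1.71-fold lower in f/f heart than in f/f muscle on its brighter probe sets, and Shmt2 was higher in f/f heart on all 4, by 0.19 to 0.94 on the log2 scale. The median of the 10 was -0.33, and 0.10 without scaling, where the median of all genes moved from 0.08 to 0.47 and 3422 genes were higher and 667 lower in place of 1741 and 1192.

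In d/d mice the order of the tissues was turned for Mthfd2 on the probe set that stands for it. That probe set was near the floor in f/f heart, and on the other the f/f tissues had differed by only 1.10-fold. Mthfd2 was 4.25-fold higher in d/d heart than in d/d muscle, and 3.72-fold on its other probe set. Asns was 3.34-fold higher, or at least 6.34-fold on its second probe set. These 2 enzymes were the ones at least 2-fold higher and 0 were at least 2-fold lower, where 15.1% of all genes were higher and 10.5% lower. Without scaling, 3748 genes were higher and 752 lower in place of 2134 and 1485. The remaining enzymes kept to within 2-fold on the probe set that stands for them, from -0.83 for Mthfd1 to 0.69 for Psat1 on the log2 scale. Over all 24 probe sets 9 passed 2-fold toward d/d heart, the others being 3 of Phgdh, 1 of Psat1 and 1 of Shmt1. The share of all probe sets that did so is not given here. The 3 of Phgdh are marked as able to share sequence, and the Psat1 value is a bound.

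The enzymes and carriers around these 10 were taken from lists of the pathway. Other folate enzymes and carriers, 12 of them measured in heart, had a median difference of 0.09, with 0 at least 2-fold higher and 1 lower. That gene was Folr2, a folate receptor found mostly on macrophages, at 62.1 in f/f heart and 22.8 in d/d heart, 2.73-fold lower. In muscle Slc25a32, the mitochondrial folate carrier, read 14.66 in f/f and 40.04 in d/d, 2.73-fold higher, but its other probe sets gave -1.07 and -0.36 on the log2 scale. Mthfd2l, the paralogue of Mthfd2, read 49.4 in f/f heart and 42.7 in d/d heart, a difference of -0.21, and its other probe sets gave -0.99 to -1.29. Mthfd2l was singled out after its values were seen.

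Methionine cycle and transsulfuration genes, which take up the one-carbon units and the serine that these enzymes handle, had a median of -0.63 in d/d heart, and 2 of the 12 measured passed 2-fold downward and 0 upward. Of the 12, 9 lay below 0, where 7561 of all 13836 genes did. Mtr, methionine synthase, read 110 in f/f heart and 48.4 in d/d heart, 2.27-fold lower, with -1.18 on the log2 scale on each of its 2 probe sets. Cbs, cystathionine beta-synthase, was at least 2.04-fold lower, from 15.3 to below the floor. In muscle the list had a median of 0.08, with Cbs 2.05-fold and Gnmt at least 2.65-fold higher and 0 lower. Purine synthesis genes had a median of -0.19 in heart, again with 9 of 12 below 0, and 0.09 in muscle, and 0 passed 2-fold in either tissue. Of the glycine cleavage system 2 genes were measured, with medians of -0.16 and -0.06.

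**Figure D4:**
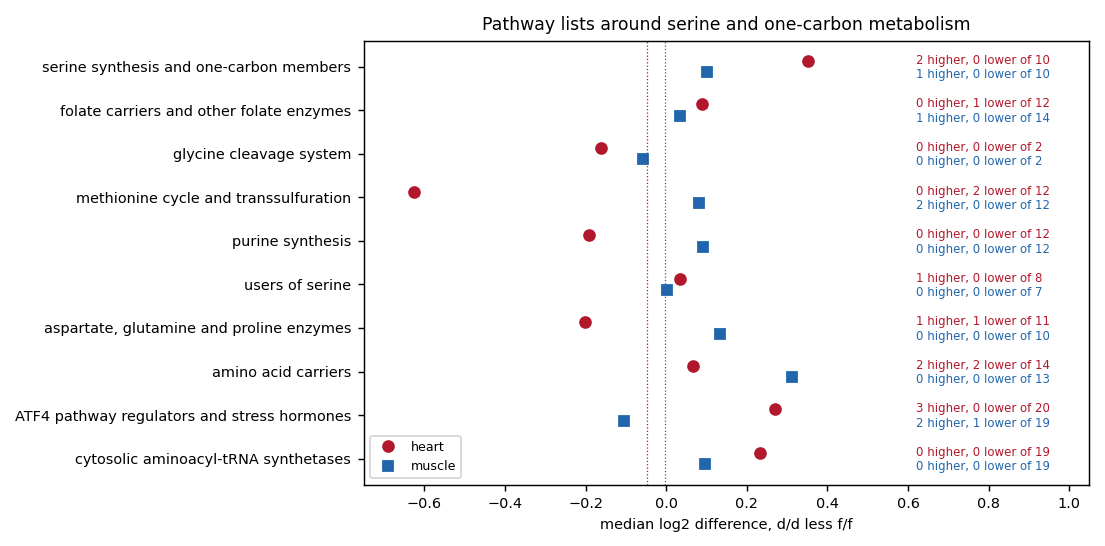
Median log2 difference between d/d and f/f of each pathway list in heart (circles) and muscle (squares), with the numbers of genes at least 2-fold higher and lower of those measured at the right and dotted lines at the medians of all genes. The 10 enzymes have the highest heart median, 0.35, and the methionine cycle and transsulfuration list the lowest, -0.63.

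The list of ATF4 pathway regulators and stress hormones had a median of 0.27 in heart over the 20 genes measured. Of these, 11 lay above 0 and 9 below 0, where 6275 of all 13836 genes lay above 0. At least 2-fold higher were 3 and lower 0, where 3.94% of all genes were higher and 4.22% lower. Nupr1, a stress-induced chromatin protein, read 38.6 in f/f heart and 204 in d/d heart, 5.29-fold higher. Ddit4, an inhibitor of mTORC1, was 2.17-fold higher, and Atf5, a transcription factor of the mitochondrial stress response, 2.11-fold, at 166 against 78.7 in f/f. Atf4 itself read 286 and 388, a difference of 0.44, and Ddit3 85.8 and 165, a difference of 0.95 (0.06 on its other probe set). The largest differences below 0 in heart were those of Dele1, Cebpb and Oma1, at -0.87, -0.54 and -0.44. Fgf21, the stress hormone of the list found on the arrays, was below the floor on all 4 and is not among the 20 measured. Atf4, Ddit3, Fgf21, Dele1, Cebpb and Oma1 were singled out after their values were seen. In muscle the list had a median of -0.10, with Ddit4 2.78-fold and Sesn2 at least 3.41-fold higher and Atf3 2.99-fold lower. The other Sesn2 probe set gave -0.25 on the log2 scale.

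Cytosolic aminoacyl-tRNA synthetases, many of which are ATF4 targets, had a median of 0.23 in heart with 17 of 19 above 0, where 6275 of 13836 genes lay above 0. None of the 19 passed 2-fold (0 higher and 0 lower). The largest differences, read after the values were seen, were Yars at 0.92, Nars at 0.89 and Gars at 0.77 on the log2 scale. In muscle the median was 0.10. Amino acid carriers had medians of 0.07 in heart and 0.31 in muscle and, in heart, 2 of 14 were higher and 2 lower. Slc7a5, the large neutral amino acid transporter, and Slc1a4, a serine and alanine transporter, were below the floor in f/f heart and at least 4.32-fold and 2.33-fold higher in d/d heart, although the other probe set of Slc1a4 gave -0.25. Slc38a4 was 3.53-fold lower, at 16.3 against 57.4 in f/f.

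Across the 4 arrays, the genes outside the 10 whose centred log2 pattern lay nearest to Mthfd2 were Crispld1, Nupr1, Col8a2, Plcxd2 and Lgals3, at Euclidean distances of 0.836 to 0.991 among 10538 genes above the floor on all arrays. Each was higher in d/d heart, from 5.29-fold for Nupr1 to 11.6-fold for Lgals3. Nearest to Asns were Vgll3, Reln, Tspan17, Dbn1 and Frzb, at distances of 0.13 to 0.266, each 3.53-fold to 4.05-fold higher in d/d heart. Of the 8 other enzymes above the floor on all arrays, Asns was nearest to Mthfd2, at 1.46, and Psph farthest, at 2.86. From Asns, however, Mthfd1l at 1.32 and Aldh1l2 at 1.41 were nearer than Mthfd2. A likeness over 4 arrays rests mostly on the high value in d/d heart.

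**Figure D5:**
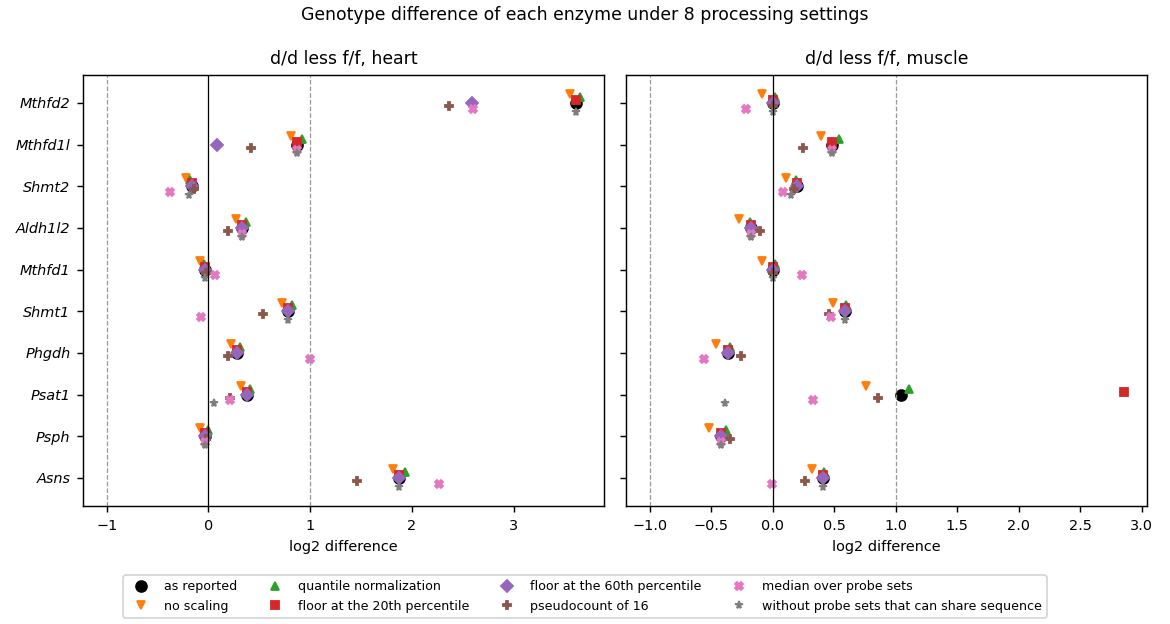
Log2 difference between d/d and f/f of each enzyme in heart (left) and muscle (right) under 8 processing settings, with black circles for the values reported. In heart Mthfd2 stays between 2.36 and 3.66 and Asns between 1.46 and 2.27, both beyond 2-fold under each setting drawn, and in muscle Psat1 runs from -0.39 to 2.85.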

How the data were processed

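Total RNA of heart and muscle of both genotypes was measured, on 1 array per group. The authors deposited 1 linear intensity per probe set, for 45101 probe sets including 64 controls. The summary method, the scaling target and any detection call are not given in the sources used here.

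Each array was scaled so that its 2% trimmed mean equalled the mean of the 4 (deposited trimmed means 48.2 to 69.2). Signals under a floor, the mean of the 40th percentiles, were set to it and log2 was taken. Of 45037 probe sets, 34945 had 1 gene symbol in the platform annotation, 932 had several and 9160 were not listed. With 1 array per group no test was made, and the number of arrays limits the precision. Values were computed with Python 3.11.15, numpy 2.4.6 and pandas 2.3.3. The calling step was checked on simulated data with known changes, larger than 2-fold and in bright genes only. Its noise was smaller than the spread between probe sets, and it did not cover changes in signals near the floor.

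The enzymes, lists and named genes were chosen with earlier results of these data known. The rule named every probe set of the 10 enzymes, up to 3 genes per pathway list and tissue with the largest difference past 2-fold, and the 5 genes nearest in pattern to Mthfd2 and to Asns. Alternatives were other scalings, floors, folds, a pseudocount and other probe set summaries. The comparison of d/d heart with d/d muscle under these alternatives, and the setting without probe sets that can share sequence, were added after seeing the data.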

Additional observations from a re-analysis of the deposited data

Results flagged for a closer look

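For 4 of the 10 enzymes the d/d array lay on opposite sides of the f/f array in the 2 tissues, as did 51.5% of the 12711 genes measured in both, so the count is near that of all genes. The log2 differences in heart and muscle were 0.28 and -0.37 for Phgdh, 0.33 and -0.18 for Aldh1l2, -0.16 and 0.20 for Shmt2, and -0.0312 and 0.0042 for Mthfd1. With 1 array per group the difference between the tissues was not tested. All were within the spread of 0.30 to 0.57 between probe sets at such signals, apart from Phgdh in muscle, whose pair of arrays read above 32 and differed by more than 0.30. For Phgdh the opposition held on each of its 4 probe sets. All 4 are marked as able to share sequence, and 1 of them was below the floor in f/f heart.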

How the results depend on the processing

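In d/d heart Mthfd2 and Asns passed 2-fold under all 8 settings that gave a log2 difference, from 2.36 to 3.66 and from 1.46 to 2.27. At a fold of 1.5 the count in heart was 4 in place of 2, where 1549 of 13836 genes were higher. The 1 enzyme higher in muscle, Psat1, was lost (0) without scaling, with the floor at the 60th percentile, a pseudocount of 16, the median over probe sets, a fold of 3, or without probe sets that can share sequence. In the last case its difference was -0.39, reversed because the remaining probe set opposes the other. For f/f heart against f/f muscle, the count of higher enzymes, 1, was 0 with the floor at the 60th percentile, at a fold of 3 and without probe sets that can share sequence. The count of lower enzymes, 2, was 1 without scaling, with the median over probe sets and with the higher floor, 0 with a pseudocount or a fold of 3, and 4 at a fold of 1.5, where 2576 of 14364 genes were lower. In d/d mice the count higher in heart, 2, was 4 with the median over probe sets, where 1714 of 13752 genes were higher, and the count lower, 0, was 3 at a fold of 1.5, where 3098 of 14124 were lower. Unless stated above, the cause was not tested. Of the 100 summary values under an alternative, 82 kept within 1.5 times the count reported or within the probe set spread. The median of the 10 in heart ran from 0.21 to 0.39. Signals of Mthfd1l, of Psat1 in muscle and, on the probe set that stands for it, of Mthfd2 in f/f heart lay near or below the floor, which limits their folds.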

Other observations

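Enzymes that draw on or feed the same amino acids were mixed. Aspartate, glutamine and proline enzymes had a median log2 difference of -0.20 in heart, with 8 of 11 below 0, and 0.13 in muscle, with 9 of 10 above 0. Aldh18a1, which opens proline synthesis from glutamate, read 50.8 in f/f heart and 122 in d/d heart, 2.39-fold higher, with its other probe sets from -0.35 to 1.07. Gpt2, the mitochondrial alanine aminotransferase, was 2.55-fold lower in d/d heart, at 25.5 against 65.0 in f/f, and below f/f heart on all of its probe sets. In muscle it read 474 in f/f and 897 in d/d, 1.89-fold higher, and its other probe sets gave 0.94 to 1.22. The opposite directions of Gpt2 in heart and muscle were not tested.

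The list of users of serine, which includes enzymes acting on lipids made from it, had medians of 0.03 in heart and 0.002 in muscle. Sphk1, a sphingosine kinase, was 2.30-fold higher in d/d heart, at 26.8 against 11.7 in f/f, with 0.18 on the log2 scale on its other probe set.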
